A study of Mus musculus with 90 samples.

Results

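Cytotoxic lymphocytes kill with a small set of gene products, and 6 of them are followed here across mouse melanomas: the granzymes Gzma, Gzmb and Gzmk, the pore protein Prf1, the granule membrane protein Nkg7 and the death ligand Fasl. The 6 genes were taken by name out of 18194 genes with a named probe set, each read by the brightest probe set that names only that gene. The array table holds 90 subcutaneous tumours of a mouse melanoma allograft, 1 array per tumour. All groups share the genotype label Hgftg;Cdk4R24C/R24C (an Hgf transgene with a Cdk4 point mutation) and the strain B6.cBrd; whether that genotype is of the graft or the host, and the age of the mice, are not given in the labels. The drug was clone 80, an anti-mouse PD-L1 mIgG1 with the D265A change, which blocks an inhibitory ligand of T cells, and the controls were mouse IgG1 D265A (NIP228) or the vehicle PBS. Sample titles state a dose of 10 mg/kg for either antibody, with PBS at 10 ml/kg, the design text also names 20 mg/kg, and doses were given into the peritoneum 2 times a week.

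Tumours fall into 12 groups by study and outcome. In study 2 there were 17 responders, 3 relapse, 2 growth delay and 14 non-responder tumours under anti-PD-L1, with 14 IgG and 3 PBS tumours. In study 3 there were 10 responders, 3 stabilization, 3 relapse and 9 non-responder tumours under anti-PD-L1, with 8 IgG and 4 PBS tumours. A responder had lost at least 5% of its volume, a non-responder had gone on growing, and a relapse tumour had shrunk until it could not be measured and grown back after 4 to 10 doses. Growth delay was used for mice in which a tumour appeared only after anti-PD-L1, and stabilization for responders whose volume stood still over 2 measurements in a row. Outcome was therefore assigned after treatment and not by randomisation, and responders were harvested after 2 to 12 doses. Every tumour has its own animal number. Those numbers run in separate blocks for PBS, IgG and anti-PD-L1 mice in both studies. The blocks follow closely on each other in study 2 and lie far apart in study 3. Treatment and block of numbers therefore cannot be told apart in any comparison with a control group. What a block stands for is not given in the labels.

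Granules of CD8 T cells and natural killer (NK) cells store granzymes and perforin together, and release them onto a bound target. Perforin opens the target membrane, granzyme B cuts after aspartate and starts apoptosis, and granzymes A and K cut after basic residues. Nkg7 takes part in granule release, while Fasl on the cell surface kills through the receptor Fas without granules. Cd3g, part of the signalling complex of the T cell receptor, served as the T cell level against which each gene was set.

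The genes lie on different chromosomes apart from Gzma (chr13:113093824-113100981, minus strand) and Gzmk (chr13:113171630-113180965, minus strand), which are neighbours 70648 bases apart in the mouse assembly GRCm38.p6. Gzmb lies at chr14:56258836-56262334 (minus), Prf1 at chr10:61297751-61304684 (plus), Nkg7 at chr7:43437138-43438246 (plus) and Fasl at chr1:161780691-161788495 (minus). The 250 bases before the annotated start are shown for the 3 granzymes, since Gzma departed from Gzmb and Gzmk across the tumours, and for Nkg7, which had r of 0.95 or more with Cd3g in each larger group. Sequences are from RefSeq (GRCm38.p6) and read 5′ to 3′ in the direction of the gene. Capitals mark the letters TGTGGT (recognised by Runx factors), TCACAC (T-box factors) and TGANTCA (AP-1), searched on both strands, and no 2 of the marked motifs overlapped.
Gzma (chr13:113100982-113101231, minus): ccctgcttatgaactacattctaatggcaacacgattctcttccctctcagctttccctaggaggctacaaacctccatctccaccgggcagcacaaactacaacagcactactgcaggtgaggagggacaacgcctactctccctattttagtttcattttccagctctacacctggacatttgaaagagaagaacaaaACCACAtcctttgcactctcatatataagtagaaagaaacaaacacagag
Gzmb (chr14:56262335-56262584, minus): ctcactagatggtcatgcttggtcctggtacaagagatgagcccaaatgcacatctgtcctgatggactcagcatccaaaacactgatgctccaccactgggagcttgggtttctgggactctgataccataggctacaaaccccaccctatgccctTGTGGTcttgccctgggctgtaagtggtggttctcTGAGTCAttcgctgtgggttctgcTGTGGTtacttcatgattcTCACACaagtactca
Gzmk (chr13:113180966-113181215, minus): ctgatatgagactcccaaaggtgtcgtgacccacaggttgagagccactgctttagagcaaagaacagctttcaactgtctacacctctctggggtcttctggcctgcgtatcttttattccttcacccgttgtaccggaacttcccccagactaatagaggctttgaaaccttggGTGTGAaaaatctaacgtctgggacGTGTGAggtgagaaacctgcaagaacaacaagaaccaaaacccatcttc
Nkg7 (chr7:43436888-43437137, plus): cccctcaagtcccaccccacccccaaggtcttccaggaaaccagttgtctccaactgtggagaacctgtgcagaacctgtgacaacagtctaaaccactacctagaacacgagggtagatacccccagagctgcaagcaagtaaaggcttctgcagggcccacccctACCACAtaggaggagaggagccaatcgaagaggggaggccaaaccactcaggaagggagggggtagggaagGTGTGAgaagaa

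Gzmb held 4 of these matches, 2 for TGTGGT, 1 for TCACAC and 1 for TGANTCA, all within the last 93 bases before the start. Gzmk held 2 matches for TCACAC, Nkg7 held 1 for TGTGGT and 1 for TCACAC, and Gzma held 1 for TGTGGT. Over all 6 genes TGTGGT was found in 4, TCACAC in 3 and TGANTCA in 1. Of 32841 windows of the same length in the table, 14% held TGTGGT, 12.3% held TCACAC and 6.75% held TGANTCA. A match describes letters in this window and no binding was measured.

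Values are RMA log2 levels, so a difference of 1 is a factor of 2, and levels of different genes were not set against each other. Tumours held melanocyte transcripts as labelled: the mean of 12 melanocyte markers lay at 9 or above in all but 5 of them. The 5 were non-responder 14 of study 2 (8.23), responders 3 (6.74) and 4 (6.62) of study 3 and stabilization tumours 1 (6.85) and 2 (8.76) of study 3. Non-responder 14 of study 2 also had T cell markers at 9.60 and B cell markers at 9.17, and it was the highest non-responder of its study for all 6 genes. Responder 3 of study 3 was alike in this, with T cell markers at 9.67 and B cell markers at 9.56. Responder 4 of study 3 had skeletal muscle markers at 12.97. Results resting on these tumours are given with and without them. The difference between 3′ and 5′ control probe sets, a sign of RNA integrity, lay between -0.112 and 0.935 outside the PBS group of study 3, where tumour 2 stood apart at 5.20.

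The first question was which killing genes were higher in shrinking than in growing tumours under the same antibody. Averaged over both studies, 5 of the 6 genes rose in responders against non-responders (27 and 23 tumours) and Gzma did not pass the test. The test was limma with Benjamini-Hochberg adjustment over all genes at an adjusted p of 0.05. The background was large: 18.9% of all genes were called higher and 32.3% lower in the same comparison. The median difference was 1.24 over the 6 genes and -0.06 over all genes. Without the 5 tumours low in melanocyte markers all 6 genes passed. In bulk tumour RNA, more cells of a type and more RNA per cell cannot be told apart.

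Gzmb, the caspase-activating granzyme, rose by 1.49 ± 0.32 (SE), a factor of 2.81 (limma, adjusted p = 0.000327). In study 3 responders the lowest, median and highest levels were 9.40, 10.70 and 11.74, against 7.50, 8.92 and 9.67 in non-responders and 6.73, 8.0 and 9.53 in IgG tumours. In study 2 they were 7.83, 9.47 and 11.60 in responders, against 6.15, 8.82 and 11.82 in non-responders and 7.06, 8.56 and 10.15 in IgG tumours. In study 3 only the bottom of the responder range reached into the other 2 groups, whereas in study 2 the groups overlapped along most of their range.

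Gzmk rose by 1.38 ± 0.27, a factor of 2.61 (limma, adjusted p = 0.000101). Its study 3 responders ran from 7.02 through a median of 8.96 to 10.57, against 5.57, 7.01 and 8.29 in non-responders and 6.04, 6.41 and 7.31 in IgG tumours. Its study 2 responders ran from 6.07 through 7.60 to 9.70, against 5.63, 6.73 and 10.36 in non-responders and 6.00, 6.47 and 7.44 in IgG tumours. A single non-responder, number 14, held the top value of study 2, and the other 13 non-responders, at 8.39 or less, overlapped with the lower responders.

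Gzma gave another picture. Its mean difference of 0.53 ± 0.24 (limma, adjusted p = 0.0625) averaged -0.06 in study 2 and 1.11 in study 3. Study 2 responders had 7.15, 8.68 and 9.27 as lowest, median and highest, against 6.37, 8.53 and 10.84 in non-responders and 6.38, 8.67 and 9.91 in IgG tumours. Responders of study 2 thus lay inside the span of the growing and control tumours. In study 3 the responders had 8.66, 9.98 and 12.06, against 7.72, 9.27 and 10.13 in non-responders and 7.43, 8.89 and 9.29 in IgG tumours, so the higher responders stood above both groups and the lower ones among them. Without non-responder 14 of study 2 the averaged Gzma difference was 0.62 (adjusted p = 0.0206). Leaving out all tumours low in melanocyte markers, responders among them, gave 0.58 (limma, adjusted p = 0.0428).

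**Figure D1:**
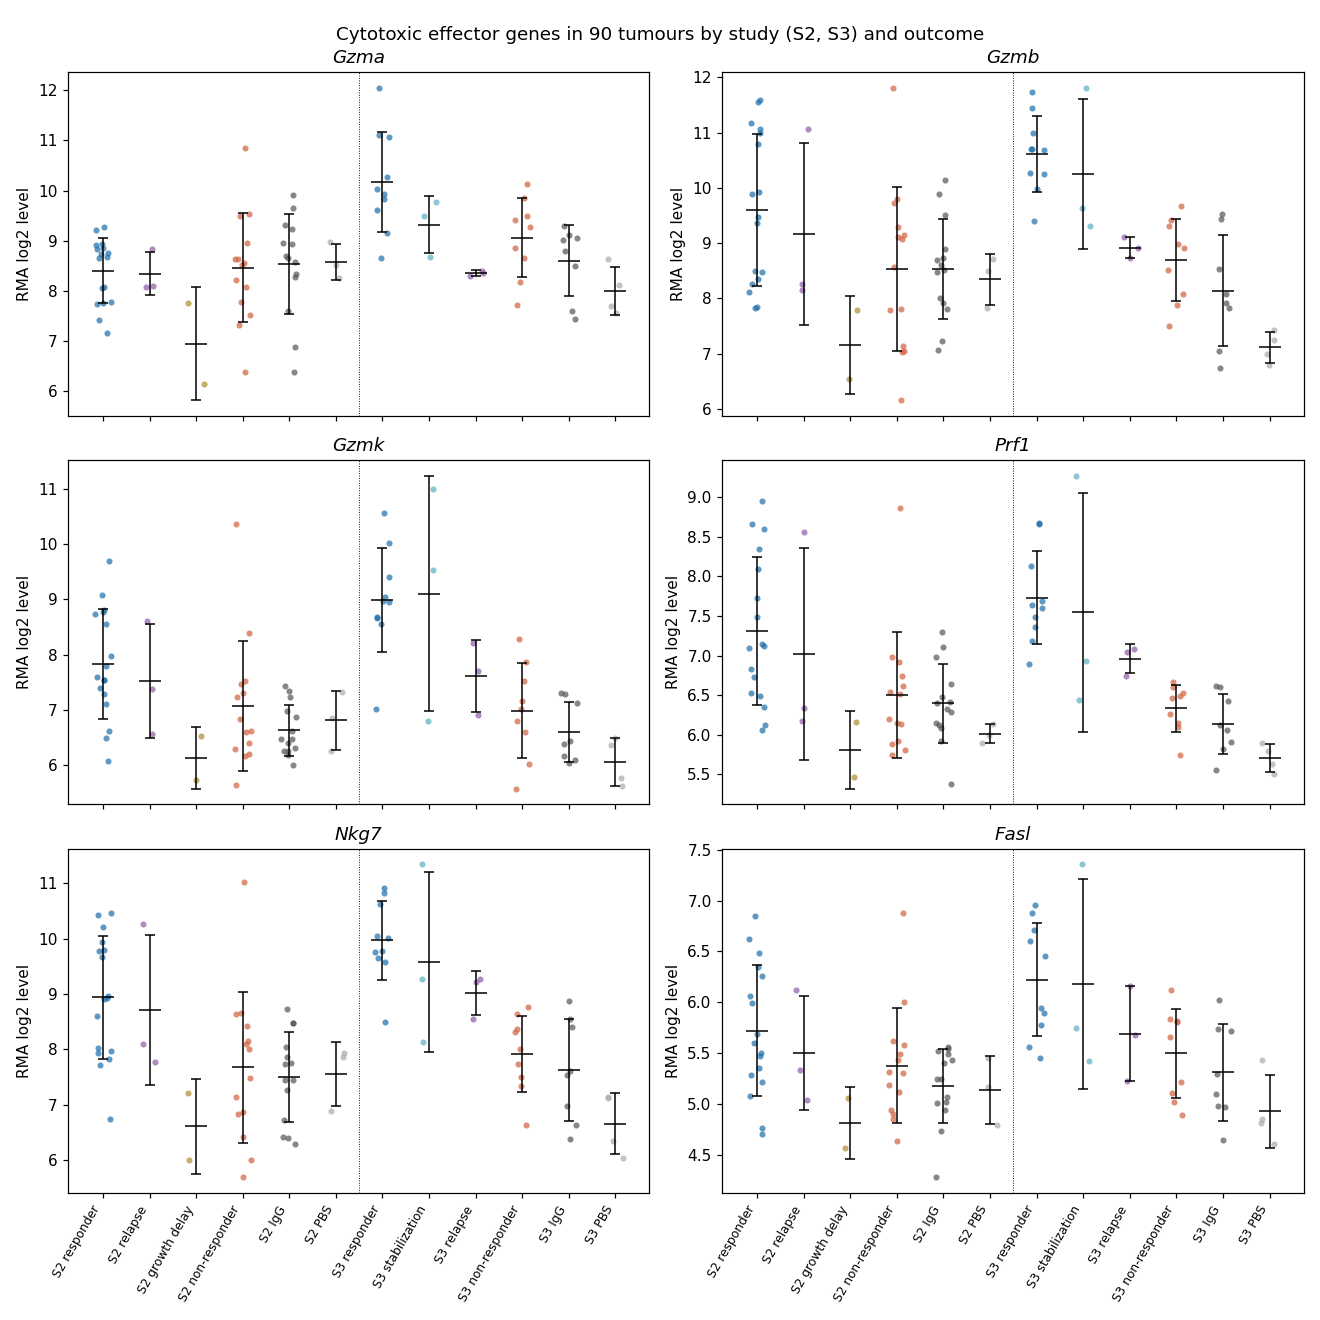
RMA log2 level (y axis) of each of the 6 genes in every tumour of the 12 groups (x axis, S2 and S3 for studies 2 and 3). Points are tumours, horizontal bars are means and whiskers are 1 SD. Gzmb, Gzmk, Prf1, Nkg7 and Fasl have their highest mean in responders, apart from Gzmk in study 3 (stabilization tumours), while the study 2 Gzma means of responders, non-responders and IgG tumours lie between 8.40 and 8.53.

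Prf1, which forms the membrane pore, rose by 1.10 ± 0.20, a factor of 2.15 (limma, adjusted p = 6.66e-05). Study 3 responders had 6.89, 7.62 and 8.67, against 5.75, 6.47 and 6.67 in non-responders and 5.56, 6.09 and 6.61 in IgG tumours. All 10 responders of study 3 lay above all 9 non-responders, which held for 0.577% of all genes, and above all 8 IgG tumours, which held for 0.429%. It was the only one of the 6 genes without overlap in these pairs of groups. Study 2 responders had 6.06, 7.12 and 8.95, against 5.75, 6.35 and 8.87 in non-responders and 5.38, 6.37 and 7.30 in IgG tumours, and those groups overlapped. A second Prf1 probe set gave a difference of 0.03 with an adjusted p of 0.719, and -0.025 against IgG tumours (adjusted p = 0.777), so the Prf1 result rests on 1 of 2 probe sets.

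Nkg7, the granule membrane protein, had the largest difference of the 6 genes at 1.65 ± 0.29, a factor of 3.15 (limma, adjusted p = 4.45e-05). Study 3 responders had 8.50, 9.89 and 10.91, against 6.64, 8.01 and 8.77 in non-responders and 6.38, 7.57 and 8.87 in IgG tumours. Study 2 responders had 6.75, 8.92 and 10.46, against 5.69, 7.75 and 11.02 in non-responders and 6.29, 7.60 and 8.73 in IgG tumours. In study 3 the responder range met the others only at its lower end, and in study 2 the groups overlapped widely.

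Fasl, the surface ligand of Fas, rose by 0.54 ± 0.15, a factor of 1.45 (limma, adjusted p = 0.0041). Study 3 responders had 5.46, 6.20 and 6.95, against 4.89, 5.66 and 6.12 in non-responders and 4.65, 5.20 and 6.03 in IgG tumours. Study 2 responders had 4.71, 5.60 and 6.85, against 4.64, 5.31 and 6.88 in non-responders and 4.28, 5.25 and 5.56 in IgG tumours. The groups overlapped in both studies. Its second probe set gave a larger difference of 1.28 (adjusted p = 4.51e-05), so the size of the Fasl change depends on the probe set.

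Cd3g, the T cell reference, rose by 2.14 ± 0.34 in the same comparison (limma, adjusted p = 2.36e-05), more than any of the 6 genes. Study 3 responders had Cd3g at 7.14, 8.97 and 10.94, against 5.07, 6.39 and 7.31 in non-responders and 4.95, 6.02 and 7.44 in IgG tumours. Study 2 responders had 5.40, 7.96 and 9.57, against 4.25, 6.48 and 10.95 in non-responders and 4.83, 5.97 and 7.57 in IgG tumours. The groups overlapped in both studies, in study 3 by the lower end of the responders alone.

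Taken separately, the studies differed in how many genes passed, and no gene passed the test of that difference. In study 3 all 6 genes were higher in responders than in non-responders, against a background of 14.4% of genes. Without the low-melanocyte tumours Gzma no longer passed there (1.04, adjusted p = 0.0605). In study 2 Nkg7 alone passed (1.26 ± 0.35, adjusted p = 0.0421, background 0.616%), and none of the 6 did after quantile normalization within each study or with only the groups compared in the fit. Without non-responder 14 of study 2, Gzmb (1.32), Gzmk (1.01) and Prf1 (0.99) passed there too, with 2872 of 18194 genes called in either direction. The difference between studies was 1.17 ± 0.49 for Gzma (unadjusted p = 0.0187, adjusted p = 0.344) and 1.25 ± 0.53 for Gzmk (unadjusted p = 0.0204, adjusted p = 0.345). It lay between 0.38 for Fasl and 0.85 for Gzmb in the other 4 genes, and 0% of all genes passed (limma).

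Against IgG tumours, responders were higher for all 6 genes over both studies (27 and 22 tumours, background 15.3%). The same responders enter this comparison and the last, so the 2 are not independent. Differences were 1.89 ± 0.29 for Nkg7, 1.79 ± 0.27 for Gzmk and 1.77 ± 0.32 for Gzmb. They were 1.25 ± 0.21 for Prf1, 0.73 ± 0.16 for Fasl and 0.72 ± 0.25 for Gzma, with limma's adjusted p = 0.0198 for Gzma as the largest of the 6. The averaged Gzma value came from study 3 (1.58 ± 0.40), where all 6 genes passed against a background of 9.2%. In study 2 Gzma was -0.13 ± 0.30 and the other 5 genes passed, against a background of 10.9%.

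Non-responders were not shown to differ from IgG tumours. None of the 6 genes passed (limma), at 0.0055% of all genes called in either direction, and none had an unadjusted p under 0.05. Differences ran from 0.15 ± 0.21 for Prf1 to 0.41 ± 0.28 for Gzmk. For IgG against PBS (22 and 7 tumours) none of the 6 passed either, with differences from 0.19 ± 0.40 for Gzmk to 0.61 ± 0.48 for Gzmb, and no unadjusted p was under 0.05. In either direction 0.0055% of genes were called there, a count of 1 gene that became 51 without study 3 PBS tumour 1 and 2981 with array weights.

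**Figure D2:**
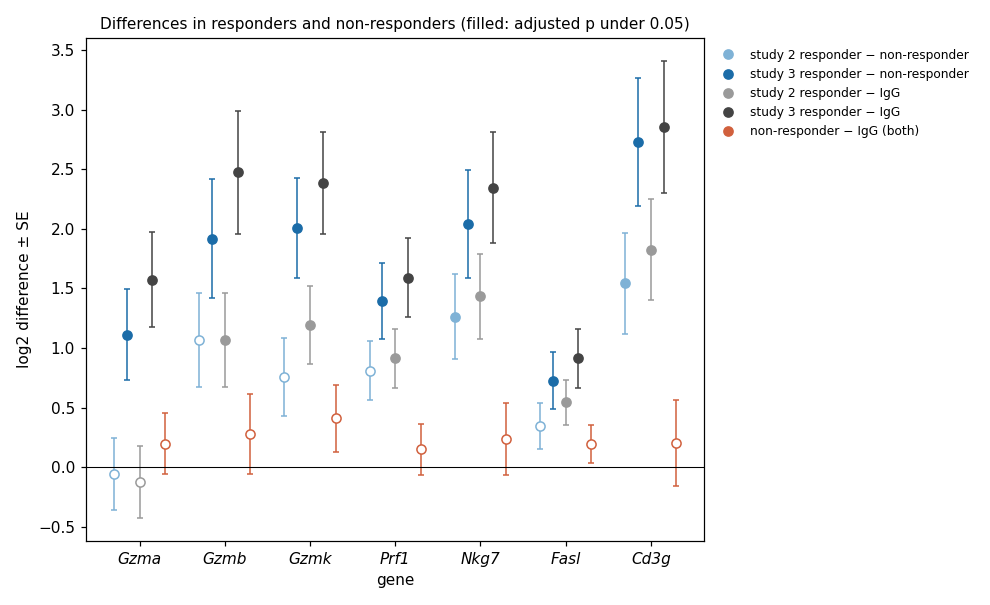
log2 difference ± SE (y axis) of the 6 genes and Cd3g (x axis) for responders against non-responders and against IgG tumours in each study, and for non-responders against IgG tumours over both studies. Filled points passed limma's adjusted p of 0.05. The study 3 values of all 6 genes are filled, both study 2 values of Gzma lie near 0, and every non-responder value is open.

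Relapse tumours, which had regressed and regrown, were few (6, in 2 studies). The level of none of the 6 genes was called against responders, non-responders or IgG tumours. Against responders all 6 genes were lower in value, from -0.38 ± 0.24 for Fasl to -1.07 ± 0.49 for Gzmb. No gene passed after adjustment (limma, 0% of all genes), though Gzma, Gzmb and Gzmk had unadjusted p of 0.0151, 0.0339 and 0.0433. Gzma means of relapse tumours and responders were 8.34 and 8.40 in study 2, and 8.35 and 10.17 in study 3. For Gzmb they were 9.16 and 9.60, then 8.92 and 10.62. For Gzmk they were 7.52 and 7.83, then 7.61 and 8.99. The relapse levels of Gzmb were 11.06, 8.26 and 8.16 in study 2 and 8.92, 9.11 and 8.73 in study 3. The first of study 2 stood near the top of its responders, and all 6 lay inside the range of the non-responders of their study.

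In study 3 the relapse values of 3 genes stood apart from some groups. Prf1 levels of 7.05, 6.75 and 7.08 lay above all 9 non-responders and all 8 IgG tumours, as 9.83% and 5.5% of all genes did. Gzma, at 8.40, 8.30 and 8.36, and Gzmb lay below all 10 responders, as 0.918% of all genes did. The averaged Prf1 difference did not pass against non-responders (0.57 ± 0.32, adjusted p = 0.154, background 24% in either direction) or IgG tumours (0.72 ± 0.32, adjusted p = 0.118, background 1.09%). Nkg7 was 1.06 ± 0.45 above non-responders in value (adjusted p = 0.0677), while Cd3g passed there at 1.66 ± 0.54 (adjusted p = 0.027). Without the low-melanocyte tumours 2 of the 6 genes passed against non-responders and 1 against IgG tumours. Of all 18194 genes, 7514 and 2573 were then called in either direction. Without an adjustment p was under 0.05 for Nkg7 alone against non-responders (0.0213), and for Nkg7 (0.00561), Prf1 (0.0277) and Gzmk (0.0279) against IgG tumours.

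Stabilization tumours (3, study 3) differed widely among themselves. Gzmk was 9.53, 10.99 and 6.79, Gzmb 9.64, 11.82 and 9.31, and Nkg7 9.27, 11.34 and 8.14. The third tumour, whose melanocyte markers lay above 9, was the lowest of the 3 for these genes. Against non-responders Gzmk (2.12 ± 0.60), Nkg7 (1.66 ± 0.66) and Prf1 (1.21 ± 0.46) passed (limma, background 13.3% higher). Against IgG tumours these and Gzmb (2.12 ± 0.74) passed (background 10.7% higher).

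Both counts for stabilization became 0 without the 2 tumours low in melanocyte markers, which leaves 1 tumour, assumed to vary like the other groups. Gzmk against non-responders was then -0.19. Leaving out stabilization tumour 1 or 2 alone also gave 0 calls against either group. Leaving out tumour 3 gave 5 calls against either group. Against responders none of the 6 passed (limma, 0.11% of genes called in either direction), with differences between -0.86 ± 0.55 for Gzma and 0.12 ± 0.60 for Gzmk and no unadjusted p under 0.05.

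Growth delay tumours (2, study 2) had low values throughout. Gzmb was 7.79 and 6.54, Nkg7 7.22 and 6.01, and Gzma 7.75 and 6.14. Both lay below all 17 responders for Gzmb, as 0.594% of all genes did. The Gzmb difference from responders was -2.44 ± 0.81 (unadjusted p = 0.00367, adjusted p = 0.298). No gene of the 6 passed against responders (limma, background 0.126% in either direction), non-responders (0%) or IgG tumours (0%). Over all genes these were 23, 0 and 0 calls, which became 99, 31 and 56 without growth delay tumour 1 and 0, 0 and 0 without tumour 2. All 6 genes had an unadjusted p under 0.05 against responders, and Gzma also did against non-responders (0.0186) and IgG tumours (0.014). No share of all genes under that unadjusted threshold is given, so this count is not read as a result about the 6 genes.

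**Figure D3:**
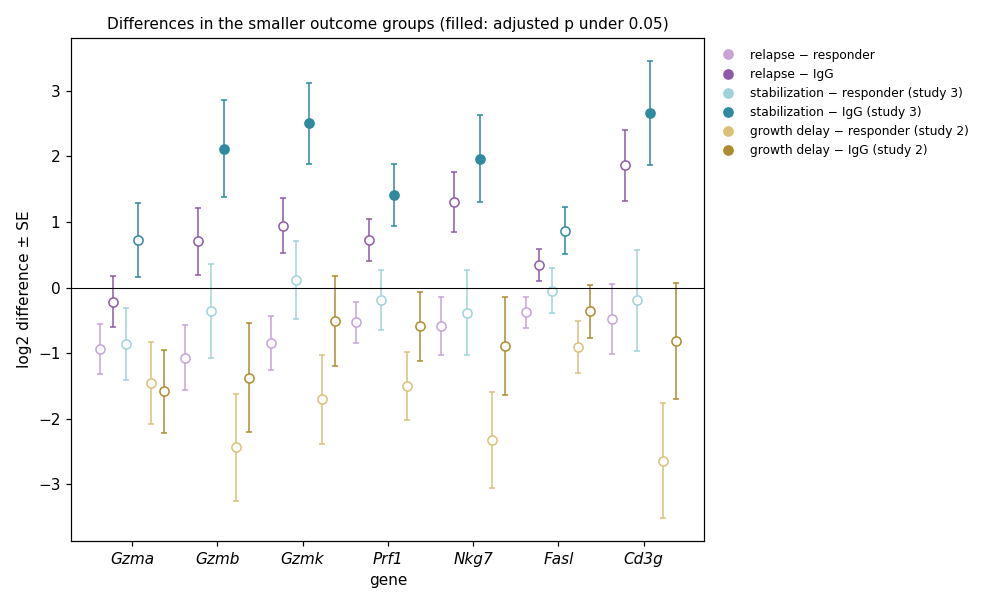
log2 difference ± SE (y axis) of the 6 genes and Cd3g (x axis) for relapse, stabilization and growth delay tumours against responders and IgG tumours. Filled points passed limma's adjusted p of 0.05. Apart from Cd3g, filled points are Gzmb, Gzmk, Prf1 and Nkg7 in stabilization against IgG tumours, and growth delay values against responders run down to -2.44 for Gzmb.

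Ordering the 6 group means within each study placed responders first for 5 genes in study 2 and for 5 genes in study 3. The exceptions were Gzma in study 2, with PBS tumours first at 8.57, and Gzmk in study 3, with stabilization tumours first at 9.11. Few neighbours in these orders differed beyond their spread. The gap between neighbouring means was larger than the larger SD of the pair in 3 of 30 pairs in study 2 and in 7 of 30 pairs in study 3. In study 2 these 3 gaps were those above growth delay tumours for Gzma, Gzmb and Nkg7. In study 3 they included the step above PBS tumours for Gzmb, Gzmk, Prf1 and Nkg7. That PBS group holds 4 tumours, among them tumour 2 with the 3′ to 5′ difference of 5.20. In study 2 Gzmk and Nkg7 averaged higher in PBS than in IgG tumours (6.81 and 6.63 for Gzmk, 7.56 and 7.50 for Nkg7). Gzmb and Prf1 averaged lower in PBS tumours there.

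Each gene was then set against Cd3g in the same tumour. The log2 difference from Cd3g was lower in responders than in non-responders for Gzma (-1.61 ± 0.31), Fasl (-1.60 ± 0.30), Prf1 (-1.03 ± 0.29), Gzmk (-0.75 ± 0.27) and Gzmb (-0.64 ± 0.26), and these 5 passed (limma). Nkg7 was -0.48 ± 0.25 and did not pass (adjusted p = 0.0543). Since Cd3g rose so much, 99.9% of all genes were called lower on this scale, so the 5 calls say nothing particular about killing genes. Against IgG tumours the same 5 were lower, from -1.62 ± 0.32 for Gzma to -0.55 ± 0.27 for Gzmk, against a background of 100% of genes after rounding.

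The choice of T cell gene changed these ratios. The Cd3e probe set rose by 0.83 ± 0.17 and Cd8a by 1.30 ± 0.23, less than Cd3g. Relative to Cd3e, Nkg7 (0.82), Gzmb (0.66) and Gzmk (0.55) were called higher in responders than in non-responders, with Prf1 at 0.27 and Fasl called lower at -0.30 (adjusted p = 0.0453). Over all genes 0.698% were called higher and 93.6% lower there. Relative to Cd8a, Nkg7 was called higher (0.35, adjusted p = 0.0452), Gzma (-0.77) and Fasl (-0.77) were called lower, and Gzmb stood at 0.19 and Gzmk at 0.08. The background relative to Cd8a was 0.077% of genes higher and 97.9% lower. Relative to the mean of Cd3d, Cd3e, Cd3g and Cd2, Gzma (-0.89) and Fasl (-0.88) were called lower, against a background of 98.5% of genes. Gzma stayed below 0 under all 4 references, from -1.61 (Cd3g) to -0.31 (Cd3e, adjusted p = 0.187), as did Fasl by its first probe set. Between 97.6% and 99.99% of all genes were below 0 under these references, so a negative value is no particular feature of either gene. The median over all genes was -0.90 relative to Cd3e, -1.36 relative to Cd8a and -1.47 relative to the mean of 4 genes, below Gzma and Fasl each time. The second Fasl probe set gave -0.85 relative to Cd3g (adjusted p = 0.0026) and 0.45 relative to Cd3e (adjusted p = 0.00923), so the sign for Fasl depends on the probe set and the reference. With Cd3g as a covariate in place of a ratio, none of the 6 passed (limma), and Gzma stood at -0.42 (adjusted p = 0.464).

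**Figure D4:**
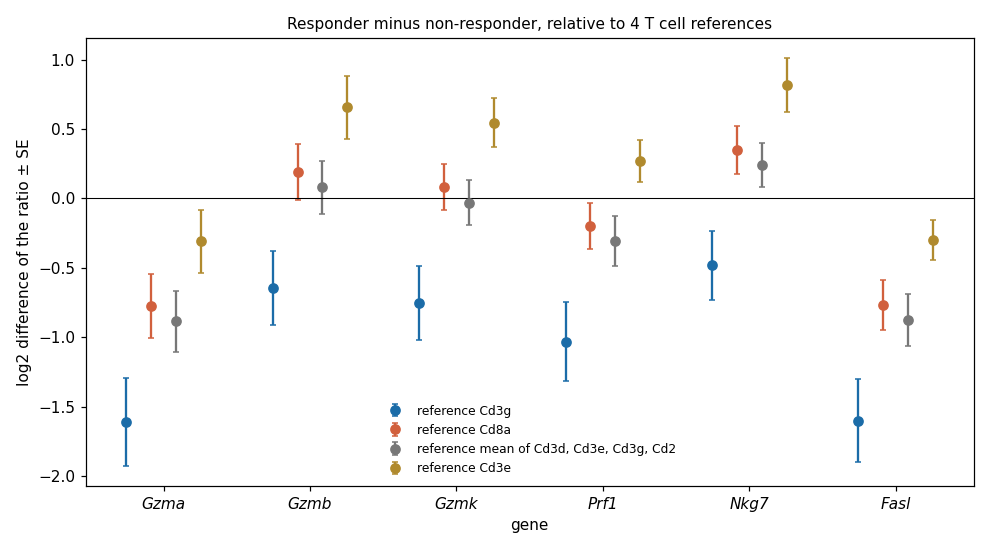
Responder minus non-responder difference of the log2 ratio to a T cell reference ± SE (y axis) for the 6 genes (x axis) under 4 references. Fasl is drawn from its first probe set. Gzma and Fasl lie below 0 with each reference, as do at least 97.6% of all genes, while Gzmb, Gzmk, Prf1 and Nkg7 lie on both sides of 0 depending on the reference.

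The Gzma ratio differed in the same direction in both studies. In study 2 the Gzma level itself averaged 8.40 in responders and 8.46 in non-responders, while Cd3g averaged 7.90 and 6.36. In study 2 the log2 difference of Gzma from Cd3g averaged 0.50 ± 0.92 (SD) in responders, against 2.10 ± 1.01 in non-responders and 2.45 ± 0.78 in IgG tumours. In study 3 it averaged 1.06 ± 1.48 in responders, against 2.67 ± 0.31 in non-responders and 2.34 ± 0.53 in IgG tumours. The responder minus non-responder value was -1.60 ± 0.39 (SE) in study 2 and -1.62 ± 0.49 in study 3. The difference between these was -0.01 ± 0.63, where no gene of the table passed. Between non-responders and IgG tumours the ratio differences ran from -0.06 ± 0.30 for Prf1 to 0.20 ± 0.28 for Gzmk, with no call among the 6 (limma, 0% of genes) and no unadjusted p under 0.05.

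The Fasl ratio was also lower in responders of both studies by its first probe set. In study 3 its log2 difference from Cd3g averaged -2.89 ± 1.03 (SD) in responders, against -0.89 ± 0.43 in non-responders and -0.94 ± 0.56 in IgG tumours. In study 2 it averaged -2.18 ± 0.80 in responders, against -0.98 ± 1.22 in non-responders and -0.90 ± 0.60 in IgG tumours. With the second probe set the responder minus non-responder value in study 3 was -1.03 ± 0.44 (SE), against -2.0 ± 0.47 with the first. For Nkg7 the difference from Cd3g averaged 1.04 ± 0.23 in study 2 responders, against 1.32 ± 0.40 in non-responders and 1.43 ± 0.24 in IgG tumours. In study 3 it averaged 0.85 ± 0.48 in responders, against 1.54 ± 0.21 in non-responders and 1.37 ± 0.25 in IgG tumours.

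For the smaller groups, relapse against responders gave ratio differences between -0.59 ± 0.41 for Gzmb and 0.10 ± 0.47 for Fasl, with no call (limma, 0% of genes). Stabilization against responders also gave none (0% of genes), with Gzma at -0.66 ± 0.71, and no member had an unadjusted p under 0.05 in either comparison. Stabilization against non-responders gave 3 calls, Gzma at -2.28 ± 0.72, Fasl at -1.86 ± 0.68 and Prf1 at -1.32 ± 0.65, against a background of 93.6% of genes lower. Without the low-melanocyte tumours none of the 3 passed, and Gzma was at 0.0058. Against IgG tumours Gzma (-1.95 ± 0.73) and Fasl (-1.80 ± 0.69) passed (background 94.6% lower), and neither did without the low-melanocyte tumours.

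Relapse tumours had lower ratios than non-responders for Gzma (-2.07 ± 0.50), Fasl (-1.50 ± 0.47), Gzmb (-1.23 ± 0.42), Gzmk (-1.12 ± 0.42) and Prf1 (-1.09 ± 0.45), all 5 called (limma, background 94.7% lower). Nkg7 was -0.59 ± 0.39 and did not pass (adjusted p = 0.134). Against IgG tumours the same 5 passed, from -2.08 ± 0.50 for Gzma to -0.92 ± 0.43 for Gzmk (background 98.6% lower), with Nkg7 at -0.56 ± 0.40. In both comparisons 5 of 6 is no larger a share than the background. Without relapse tumour 1 of study 2 none of the 6 passed against non-responders. In growth delay tumours the ratio was higher than in responders for Fasl (1.73 ± 0.77, adjusted p = 0.0264), where 98.4% of genes were called higher and the other 5 members did not pass. Fasl no longer passed without growth delay tumour 2, and relative to Cd3e it stood at -0.0069.

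Inside the 6 groups of 8 or more tumours the genes were tied to Cd3g to different degrees. Both values of a point come from the same array and RNA. Of 36 relations (6 genes in 6 groups), 33 had an adjusted p under 0.05 by permutation, exact in groups under 10 tumours. Spearman's rho passed in the same number, 33. The count of all genes that would pass was not computed. As a description, the share of all genes with a lower r with Cd3g than the member was at least 94.3% for every member in the 5 groups other than study 3 responders. In study 3 responders it was 59.3% for Gzma, 74.4% for Fasl, 85.6% for Prf1, 93.8% for Gzmb and over 99.9% for Nkg7 and Gzmk. Nkg7 had Pearson's r from 0.95 to 0.994 and rho from 0.867 to 0.978, and r from 0.915 to 0.992 without the 2 farthest tumours. Gzmk ran from 0.803 to 0.972 (rho 0.728 to 0.976) and Gzmb from 0.74 to 0.956 (rho 0.806 to 0.976).

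The 3 relations that did not pass were all in study 3 responders. There Gzma had r = 0.0173 (permutation p = 0.962, adjusted 0.962, rho 0.00606), and -0.369 without the 2 farthest tumours. Fasl had r = 0.377 (permutation p = 0.28, adjusted 0.288, rho 0.442) and Prf1 had r = 0.593 (permutation p = 0.0713, adjusted 0.0755, rho 0.527). Without the 2 responders low in melanocyte markers, r over 8 tumours was -0.216 for Gzma, 0.711 for Fasl and 0.785 for Prf1. Gzmb there had r = 0.41 without the 2 farthest tumours, against 0.74 with them. In the other 5 groups Gzma had r between 0.65 in study 2 IgG tumours and 0.92 in study 3 non-responders. The gap between study 3 responders and the other groups was not tested.

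**Figure D5:**
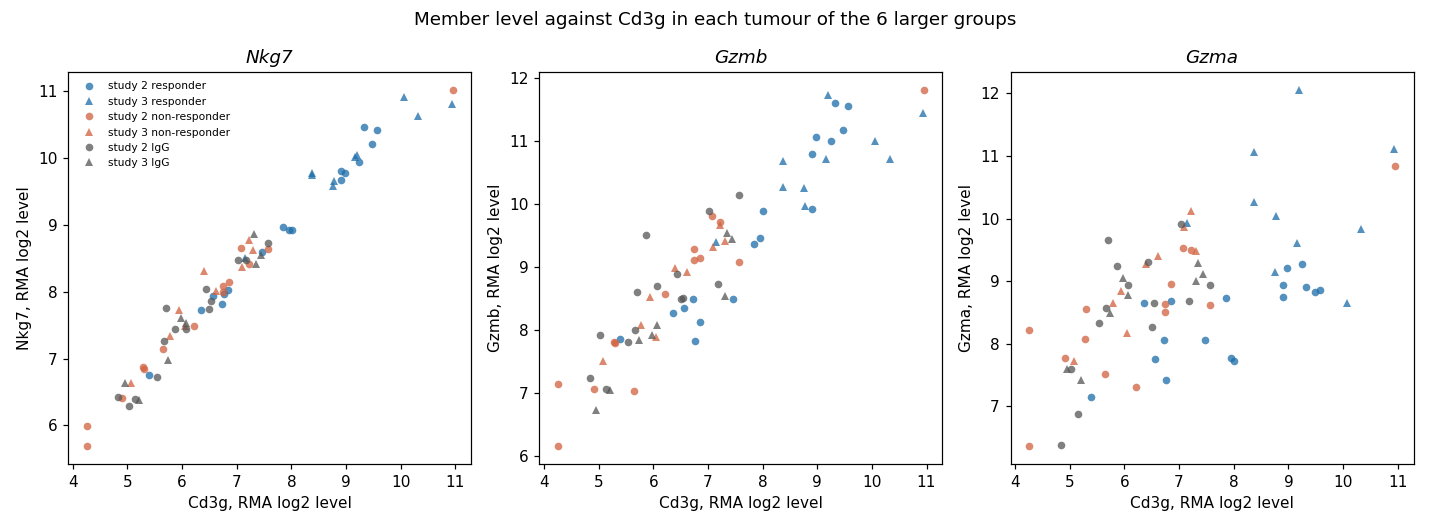
RMA log2 level of Nkg7, Gzmb and Gzma (y axes) against that of Cd3g (x axes) in each tumour of the 6 larger groups, by outcome (colour) and study (circle for study 2, triangle for study 3). Nkg7 points form a narrow band with r of 0.95 or more in each group, and Gzma points of responders spread widely at high Cd3g.

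Among themselves, with group means taken out over the 90 tumours, the members were most alike for Gzmb and Nkg7 (r = 0.926) and for Gzmb and Prf1 (r = 0.903). Gzma had r from 0.566 with its neighbour Gzmk to 0.745 with Gzmb, and in 4 of its 5 pairs a lower r than any pair of the other genes. Without the low-melanocyte tumours that held in 3 of its 5 pairs, with Gzma and Nkg7 at 0.648 and Gzmk and Prf1 at 0.642. The 3 genes outside the set most like each member, by the same r, differed too. For Gzma they were Klra7 (0.90), Calhm6 (0.828) and Klrd1 (0.824), of which Klra7 and Klrd1 encode receptors of NK cells. Leaving out the low-melanocyte tumours gave 0.896, 0.82 and 0.812. Klrd1 had a higher r with Nkg7 (0.855) than with Gzma, and a slightly lower r with Gzmb (0.819). Klre1, another NK cell receptor gene, had 0.82 with Fasl and 0.721 with Gzma. The NK cell receptor genes Ncr1 and Klra8 went the other way, with their highest r among the members for Gzma. Ncr1 had 0.639 with Gzma and 0.462 with Gzmb, and Klra8 had 0.792 and 0.585.

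For Nkg7 the likest were Cd3g (0.974), Trbv1 (0.943) and Ms4a4b (0.941), and for Gzmb they were Il18bp (0.923), Cd3g (0.903) and Tapbpl (0.899). For Gzmk they were Cd2 (0.908), Gimap4 (0.901) and Ctsw (0.898), for Prf1 Il18bp (0.872), Cd8b1 (0.863) and Lag3 (0.857), and for Fasl Klrk1 (0.869), Cxcr6 (0.862) and Ifng (0.836). Trbv1 and Cd8b1 encode parts of the T cell receptor and its co-receptor, and Cd2 an adhesion receptor of T and NK cells. Ctsw is a protease of cytotoxic lymphocytes and Lag3 an inhibitory receptor of activated T cells. Il18bp binds and neutralises an interleukin, Klrk1 encodes the activating receptor NKG2D, and Cxcr6 is a chemokine receptor of effector lymphocytes. These r values describe 90 tumours and carry no test.

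The balance of Gzmb and Gzmk was not shown to differ by outcome. The log2 difference Gzmb minus Gzmk averaged 1.77 ± 0.84 (SD) in study 2 responders, against 1.46 ± 0.74 in non-responders. It averaged 1.63 ± 0.65 in study 3 responders, against 1.72 ± 0.34 in non-responders. The mean responder minus non-responder difference was 0.11 (two-sided permutation test within study, p = 0.562). Only the difference between groups is read from this quantity, since the 2 probe sets have their own scales.

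The wider killing pathway moved in parts, against the 18.9% of all genes called higher and 32.3% called lower in this comparison. Of 7 other granzymes none rose in responders against non-responders, Gzmn (-0.17 ± 0.06) and Gzmm (-0.13 ± 0.05) fell, and Gzmd (0.40 ± 0.33) and Gzmg (0.24 ± 0.24) were among the 5 that did not pass. Gzmc to Gzmg are close relatives in sequence, and whether their probe sets tell them apart was not tested. The 2 falls of 7 are a share below that of all genes, and the list's median was 0.04, against -0.06 over all genes.

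Of 12 genes for granule storage and release, 5 rose, 2 fell and 5 did not pass, with a median of 0.15. Stx11, a syntaxin of granule fusion, rose by 0.57 ± 0.11. Ctsc, which removes the granzyme propeptide, rose by 0.68 ± 0.14, and Srgn, the proteoglycan that packs granules, by 0.69 ± 0.19. Lyst, a regulator of lysosome size, rose by 0.38 ± 0.10. Rab27a (-0.42 ± 0.12), which docks granules and also carries melanosomes in pigment cells, and Vamp7 (-0.49 ± 0.16), a vesicle fusion protein, fell. Melanocyte markers fell in the same comparison, with 6 of 12 called lower, and 5 without the low-melanocyte tumours. Their part in the falls of Rab27a and Vamp7 was not tested.

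The death receptor list had 5 genes higher, 1 lower and 5 not passed of 11 measured, with a median of 0.09. Without the low-melanocyte tumours it had 5 higher and 2 lower. Tnfsf10, the ligand TRAIL, rose by 0.77 ± 0.16 and Tnf by 0.42 ± 0.09. Cflar, an inhibitor of caspase-8, rose by 0.33 ± 0.07 and the TNF receptor Tnfrsf1a by 0.35 ± 0.09. Fas, the receptor of Fasl, rose by 0.43 ± 0.12, Fadd fell by 0.19, and Casp8 was -0.02 ± 0.07.

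Among 8 measured granzyme inhibitors and substrates 3 rose and 2 fell, with a median of 0.07, and the share that fell was below that of all genes. Serpinb6b, reported in mouse to inhibit granzyme A, rose by 1.39 ± 0.22. Serpinb9, the inhibitor of granzyme B, rose by 0.93 ± 0.19, and Serpinb9b by 0.29 ± 0.11. Dffb (-0.28 ± 0.10), the caspase-activated DNase, and Gsdme (-0.44 ± 0.17), a pore former cut by granzyme B, fell. Without the low-melanocyte tumours the list had 3 higher and 1 lower.

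Of 14 regulators of the cytotoxic program 11 were higher and none lower, with a median of 0.42. Tbx21, a T-box factor of effector lymphocytes, rose by 1.67 ± 0.26, Ifng by 1.61 ± 0.26, the cytokine receptor chain Il2rb by 1.5 ± 0.24 and Stat4 by 1.04 ± 0.20. The count was also 11 without the low-melanocyte tumours.

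Markers of the cell types that could carry these genes moved in the same comparison. All 10 measured T cell markers were higher in responders than in non-responders. Their mean per tumour ranged from 5.64 to 8.02 in study 2 responders and 6.48 to 9.67 in study 3 responders, against 5.39 to 9.60 and 5.49 to 6.54 in non-responders. Of 8 NK cell markers 5 were higher (Klrc1 1.52 ± 0.33, Klrd1 1.36 ± 0.32, Klre1, Klra8 and Klra7) and Ncr1, a receptor defining NK cells, did not pass (0.09 ± 0.08). Their mean ranged from 4.32 to 6.01 in study 2 responders and 5.71 to 6.83 in study 3 responders, against 3.77 to 6.55 and 4.39 to 6.11 in non-responders.

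All 9 macrophage markers and all 10 fibroblast markers were also higher, as were 4 of 8 mast cell markers, 4 of 7 neutrophil markers and 3 of 5 adipocyte markers. B cell markers had 1 of 8 higher, plasmacytoid dendritic cell markers 1 higher and 1 lower of 7, and skeletal muscle markers 0 of 12. Without the low-melanocyte tumours 2 of 7 neutrophil markers were higher. B cell markers then had 2 higher and 1 lower, and plasmacytoid dendritic cell markers 3 higher and 0 lower. The part of any of these cell types in the changes of the 6 genes was not tested.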

How the data were processed

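The files hold log2 expression values per probe set that the authors deposited as a normalized table; RMA and limma are named in the submitters' processing notes without versions. RNA was isolated with a column kit and 800 ng was amplified and biotin-labelled, per the labels' protocols. No source used here says whether RMA was run on the studies jointly, so differences were taken within a study and averaged. Of 45101 probe sets, 34958 name 1 gene, 932 several and 9211 none; each of the 18194 genes was read by the one with the highest mean over the 90 arrays, with names from the platform annotation. Precision is set by how many arrays a group has; array medians lay between 5.71 and 5.90.

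A limma (3.58.1, R 4.3.3) fit with 1 mean per group gave each contrast, with Benjamini-Hochberg adjustment over all genes and a threshold of 0.05. For ratios, Cd3g was subtracted from each gene in each tumour and the fit repeated. Correlations used permutation of tumours, exact under 10 and otherwise with 100000 resamples. P-values measure the spread between tumours of different animals. Shares of all genes with an unadjusted p under 0.05 are not given, so counts of members under it are not read as results. The 17 gene lists, the members among them, hold 167 entries, 154 of them measured, and members and lists were chosen with earlier results of these data known. Named genes were the 6 members, the references Cd3g, Cd3e, Cd8a and Ncr1, the 4 genes of smallest p in responders against non-responders in each pathway list, and the 3 genes most like each member. Gzmc, Rab27a, Vamp7, Fas, Fadd, Casp8, Gsdme and the NK cell genes were named beyond that rule, after their values were seen. Array weights came from limma's gene-by-gene method, since REML did not converge. Alternatives were the probe set rule, normalization, weights, covariates, filters, thresholds, the T cell reference and leaving out tumours. Sequences and loci came from RefSeq tables of GRCm38.p6.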

Additional observations from a re-analysis of the deposited data

Results flagged for a closer look

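In the 48 sets of 4 to 10 tumours examined (levels and ratios of the 6 genes), 1 value stood apart by Dixon's criterion. The log2 difference of Gzmb from Cd3g in IgG tumour 3 of study 3 was 1.22, the lowest of its 8, with the nearest at 1.78. Chance gives about 1 such value in 20 sets.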

How the results depend on the processing

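Of 2513 values recomputed for 198 results, 2235 were classed as unchanged. For a single gene this means the same side of the threshold and no change of sign in a value that passed. The 2235 include 100 values that changed sign where neither value passed. They also include differences that a setting could not alter, such as those of Gzma, Gzmb, Gzmk and Nkg7 with the second probe sets of Prf1 and Fasl. The share of unchanged values is therefore no measure of how firm the results are. No paired analysis was possible because every tumour comes from its own animal and the replicate numbers only follow accession order. Leaving out the tumours low in melanocyte markers and the second Fasl probe set in the ratios were chosen after seeing the data. The filter on dim genes removed Fasl, so no count was made there. Groups of 2 or 3 tumours limit the relapse, stabilization and growth delay comparisons. Array weights raised the count of members called to 2 for relapse against non-responders, 3 for relapse against IgG, 3 for stabilization against responders (Prf1 1.21, Fasl 0.87, both reversed), 5 for stabilization against non-responders and 5 for study 2 responders against non-responders. Without the low-melanocyte tumours the counts were 2, 1, 0 and 0 for relapse against non-responders, relapse against IgG and stabilization against non-responders (Gzmk -0.19) and IgG, and 5 for study 2 responders against non-responders. Without non-responder 14 of study 2 alone they were 1 for relapse against non-responders and 4 for study 2 responders against non-responders. With only the groups compared in the fit the counts were 3 for relapse against IgG, 1 for stabilization against IgG and 0 for study 2 responders against non-responders. PBS pooled with IgG gave 2 for relapse against IgG, and study as an additive term gave 1 for stabilization against non-responders. At a threshold of 0.01 the counts were 1 for stabilization against non-responders and against IgG, 0 for study 2 responders against non-responders and 3 for study 2 responders against IgG. Study 2 responders against non-responders gave 2 with the mean of all probe sets and 0 after quantile normalization. Leaving out 1 stabilization tumour gave 0 to 5 calls against non-responders and 0 to 5 against IgG. Over all genes, responders against non-responders had 9319 calls in either direction, 5748 with the filter on dim genes and 5366 at a threshold of 0.01. Responders against IgG had 6436 calls, 2746 at a threshold of 0.01 and 3899 without the low-melanocyte tumours. In study 2, responders against non-responders had 478 calls, between 39 at a threshold of 0.01 and 8042 with array weights, and 4529 without its low-melanocyte tumour. The count in study 3 was 6680, and 2275 without the low-melanocyte tumours. Relapse against IgG had 198 calls, 1 at a threshold of 0.01 and 8531 with array weights, and 0 to 21 with 1 relapse tumour left out. Relapse against non-responders had 4370, 453 and 10515 under the same settings, and 700 to 3478 with 1 left out. Without the low-melanocyte tumours the relapse counts were 2573 against IgG and 7514 against non-responders. Leaving out 1 stabilization tumour gave 1 to 7515 calls against non-responders, 1 to 6236 against IgG and 1 to 1356 against responders. The second Prf1 probe set gave -0.025 for responders against IgG and -0.15 in study 3.

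For the ratios, responders against non-responders relative to Cd3e gave Gzmb 0.66, Gzmk 0.55, Prf1 0.27 and Nkg7 0.82. Relative to the mean of Cd3d, Cd3e, Cd3g and Cd2, 2 members were called and Gzmb was 0.0802. Relative to Cd8a, 3 were called, with Gzmb 0.19, Gzmk 0.0805 and Nkg7 0.35. Cd3g as a covariate gave 0 calls and Prf1 0.0466. Responders against IgG gave 3 calls relative to Cd3e (Gzmb 0.78, Gzmk 0.80, Prf1 0.26, Nkg7 0.90), 2 relative to the mean of 4 genes (Gzmb 0.17, Gzmk 0.19), 3 relative to Cd8a (Gzmb 0.24, Gzmk 0.26, Nkg7 0.36), 0 with the covariate (Gzmk 0.17, Prf1 0.0951) and 3 without the low-melanocyte tumours. Stabilization against non-responders gave 0 to 4 calls with 1 tumour left out, 1 relative to Cd3e (Gzmk 1.02, Prf1 0.10), 0 with the covariate and 0 without the low-melanocyte tumours (Gzma 0.0058). Relapse against non-responders gave 0 to 5 calls with 1 tumour left out, 0 relative to Cd3e (Gzmk 0.0060, Prf1 0.0425), 2 relative to the mean of 4 genes, 0 relative to Cd8a and 2 with the covariate. Relapse against IgG gave 4 to 5, then 1 (Gzmb 0.0176, Gzmk 0.26, Prf1 0.0367), 2, 1 (Gzmk 0.0832) and 0 under the same settings. Stabilization against IgG gave 0 to 3 with 1 left out, 1 relative to Cd3e (Gzmk 1.33), 1 relative to Cd8a, 0 with the covariate and 0 without the low-melanocyte tumours (Gzma 0.34). Growth delay against responders gave 0 to 1 with 1 left out, and 0 relative to Cd3e (Fasl -0.0069), the mean of 4 genes, Cd8a or with the covariate. The second Fasl probe set gave 0.45 relative to Cd3e in responders against non-responders. The causes of these changes were not tested. The Gzmb minus Gzmk difference between responders and non-responders was 0.22, 0.11 and 0.14 without the low-melanocyte tumours, with the mean of probe sets and after quantile normalization. Gzmb and Gzmk each have a single probe set, so the mean of probe sets could not change this value.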
